A study of Caenorhabditis elegans with 2 samples.

Results

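Of the 1869 reproducible peaks of the tagged MADF-10 protein on the ce11 genome of Caenorhabditis elegans, 633 (33.9%) lay at the promoter of a single gene, and 602 genes had at least 1 of them. A peak was included when it was nuclear, when its summit fell from 1000 bp upstream to 200 bp downstream of the annotated transcript starts of exactly 1 protein-coding gene, and when no tRNA gene lay within 200 bp of the summit. Of the other reproducible peaks, 22 were on mitochondrial DNA, 849 had their summit in no promoter window, 304 in the windows of 2 or more genes, and 61 near a tRNA gene. The nearest start was an internal one for 105 peaks (16.6%, exact 95% interval 13.8 to 19.7) and the outermost, most upstream start of the gene for 528 (83.4%). The intervals cover counting error only.

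Worms of strain OP508 carried the unc-119(tm4063) III allele and the integrated transgene wgIs508, from which MADF-10 was made with GFP and FLAG at its C terminus. Chromatin was immunoprecipitated with an antibody against GFP from whole hermaphrodites collected as young adults, 68 h after L1 larvae that had been starved for synchronisation were released, and the DNA was sequenced (ChIP-seq). There was 1 group, with 2 biological replicates, so no condition or genotype was compared. The sources used here do not give the number of transgene copies or the sequencing depth, and the control library was not analysed here. The whole animal mixes all tissues, so the cells behind a peak are not known from these data.

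MADF domains are folds related to the Myb DNA-binding domain and are found in proteins that bind DNA or chromatin. In C. elegans many genes have alternative transcript starts, some of them inside an intron of the longer transcript, and such an internal start has a promoter of its own within the gene. Many worm messages are also trans-spliced to a leader RNA, so an annotated start can lie downstream of the place where transcription begins.

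The DNA under the strongest summits is shown first because the later results turn on its base composition and on a few short motifs. Each line gives the 61 bases centred on a summit, in the RefSeq sequence of WBcel235 (the assembly behind ce11), 5′ to 3′ on the strand of the gene. Capitals mark the short motifs counted in the results, on either strand, and a longer stretch of capitals comes from overlapping matches. In these lines they are the GA repeat GAGAGA, the E-box core CACGTG, the alternating run GCGCGC and, of the motifs picked from these data, AGAGAA as well as GACGCA, then CGTCTC and lastly AGACGC. The first 6 lines are internal-start peaks, taken in order of signal where the window held no annotated exon, with 1 chromosome left out.
T24B8.3 (chrII:9060353-9060413, minus strand): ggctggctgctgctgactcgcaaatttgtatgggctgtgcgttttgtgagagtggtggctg
hif-1 (chrV:20782396-20782456, plus strand): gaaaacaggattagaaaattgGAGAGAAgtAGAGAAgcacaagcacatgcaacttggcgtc
pqn-65 (chrX:4617050-4617110, minus strand): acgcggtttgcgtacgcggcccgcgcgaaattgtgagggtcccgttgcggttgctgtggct
T24B8.3 (chrII:9060554-9060614, minus strand): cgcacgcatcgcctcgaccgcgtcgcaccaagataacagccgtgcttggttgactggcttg
eat-17 (chrX:16409434-16409494, minus strand): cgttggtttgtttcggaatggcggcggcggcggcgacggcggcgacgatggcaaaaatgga
egl-4 (chrIV:1857913-1857973, plus strand): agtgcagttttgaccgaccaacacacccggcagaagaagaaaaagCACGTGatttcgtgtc
The next 6 lines are outermost-start peaks taken in the same way.
vps-60 (chrV:8606463-8606523, minus strand): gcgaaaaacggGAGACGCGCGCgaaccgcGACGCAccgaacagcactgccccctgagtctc
klp-13 (chrX:5984744-5984804, plus strand): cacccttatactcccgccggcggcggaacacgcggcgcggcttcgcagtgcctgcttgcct
rpl-3 (chrIII:3867540-3867600, plus strand): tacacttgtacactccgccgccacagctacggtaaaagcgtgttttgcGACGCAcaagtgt
epn-1 (chrX:14818917-14818977, minus strand): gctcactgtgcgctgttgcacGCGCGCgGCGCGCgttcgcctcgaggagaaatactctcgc
serp-1.1 (chrX:15841258-15841318, plus strand): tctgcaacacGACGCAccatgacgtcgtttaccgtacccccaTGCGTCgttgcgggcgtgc
cdc-48.1 (chrII:10563530-10563590, minus strand): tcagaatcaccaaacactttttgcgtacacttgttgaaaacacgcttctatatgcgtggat
The last 4 lines are the strongest further peaks, under the same limits, whose window held AGACGCAG on either strand, a run described with the motifs. They were chosen after that run had been seen, all 4 lie at outermost starts, and capitals mark the run alone.
gmeb-1 (chrII:19028-19088, plus strand): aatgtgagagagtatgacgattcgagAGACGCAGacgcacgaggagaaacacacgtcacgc
hsp-3 (chrX:6092146-6092206, minus strand): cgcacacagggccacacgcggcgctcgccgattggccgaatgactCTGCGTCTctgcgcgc
fbxl-1 (chrIII:8227690-8227750, plus strand): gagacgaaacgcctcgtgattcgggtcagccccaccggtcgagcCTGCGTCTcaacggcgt
Y39B6A.43 (chrV:18967832-18967892, minus strand): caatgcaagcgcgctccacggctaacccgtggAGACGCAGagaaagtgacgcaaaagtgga
The G+C content of these 16 windows ran from 39.3% at cdc-48.1 to 70.5% at klp-13 and hsp-3. T24B8.3 appears with the summits of both of its peaks at the same internal start.

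The strongest peaks at outermost starts stood at W06H8.6, at madf-10 itself and at gsa-1. The authors' signal value of each region, which serves here for comparison within a list only, was 13878 at madf-10 in the pooled list, with 4214 in replicate 1 and 9726 in replicate 2, and its summit lay 240 bp upstream of the start. Tagged madf-10 is also what the transgene expresses, with its copy number not given, and whether added copies of the locus raise this signal was not tested. W06H8.6 had the highest value, 17149.7 pooled, 5552 in replicate 1 and 11627 in replicate 2, but that summit lay 750 bp upstream, inside a non-coding gene or pseudogene, in a region of chromosome V from 6226212 to 6230018. At gsa-1, the gene of the G protein subunit that stimulates adenylyl cyclase, the peak 312 bp upstream had 2539 pooled, 848 in replicate 1 and 1701 in replicate 2. The next was vps-60, an ESCRT-III-related gene of endosomal sorting, with 1147 pooled, 370 in replicate 1 and 778 in replicate 2. The kinesin gene klp-13 had 1082 pooled, 350 in replicate 1 and 734 in replicate 2. These 5 peaks kept the same order in both replicates.

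The other 10 of the 15 strongest outermost-start peaks had pooled signals from 572 to 930. They stood at rpl-3 and rpl-35, which encode proteins of the large ribosomal subunit, and at vha-13, for a part of the proton pump of vacuoles and lysosomes. They also stood at epn-1 (epsin, of endocytosis), cdc-48.1 (the p97 ATPase that extracts ubiquitinated proteins), srbc-82 (a chemoreceptor gene), serp-1.1, K12H4.5, H41C03.3 and nspc-17. The summit assigned to vha-13, 552 bp upstream of its start, lay in an exon of the neighbouring gene cept-2. At H41C03.3 and nspc-17 the summits lay 952 and 758 bp upstream, near the far edge of the window.

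The strongest peaks at internal starts stood at K11D2.4, T24B8.3 and din-1. K11D2.4 had 2450 pooled, 808 in replicate 1 and 1642 in replicate 2, at 917 bp upstream of its internal start and near the far edge of the window. The first peak of T24B8.3 had 2105 pooled, 672 in replicate 1 and 1436 in replicate 2, at 289 bp upstream of a start 1043 bp inside the gene's outermost one. At din-1, the gene of a partner of DAF-12 in transcriptional repression, the peak had 1164 pooled, 398 in replicate 1 and 766 in replicate 2. Its summit lay 8 bp upstream of an internal start that is 13531 bp downstream of the outermost start. The first peak of tent-5, a non-canonical poly(A) polymerase, had 493 pooled, 128 in replicate 1 and 378 in replicate 2. The peak of hif-1, the hypoxia-inducible factor, had 492 pooled, 155 in replicate 1 and 342 in replicate 2, at 46 bp upstream of its internal start. It lay within 10 kb of the strongest region of the whole list, on chromosome V from 20777792 to 20779270 with a signal of 19717, which is at no promoter.

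The remaining 10 of the 15 strongest internal-start peaks had pooled signals from 254 to 367. Those with known roles were at eat-17 (a Rab GTPase-activating protein), gsa-1, egl-4 (the cGMP-dependent protein kinase), cfim-2 (pre-mRNA cleavage), flcn-1 (folliculin), zfp-1 (a PHD-finger chromatin protein) and hrpk-1 (an hnRNP K relative). The others were pqn-65, drap-1 and the second summit of T24B8.3. That second summit had 357 pooled and 138 in replicate 1, but 20.03 in replicate 2, so it was far weaker in that replicate's own list. All 15 of these summits lay in an intron of their own gene.

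**Figure D1:**
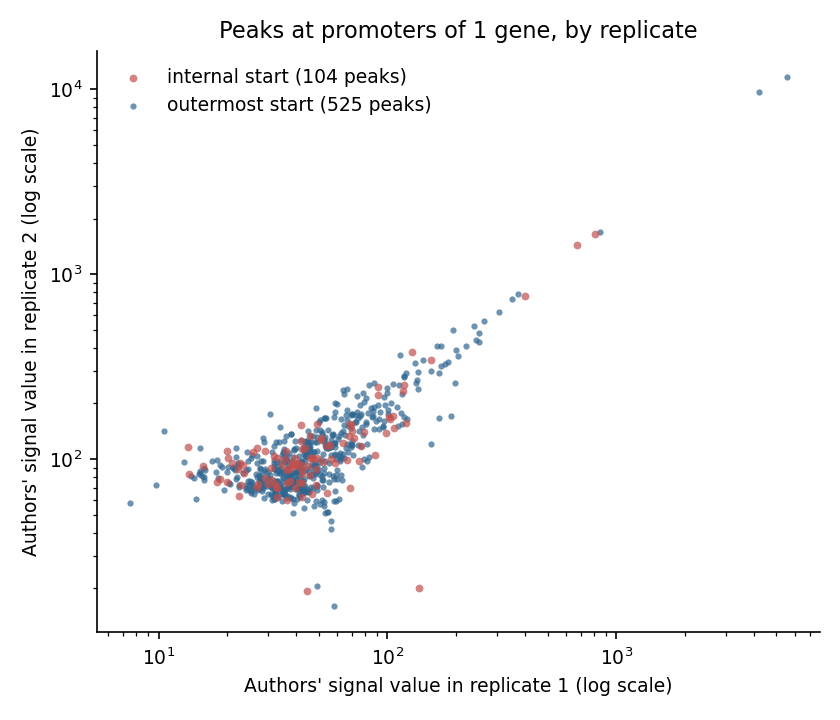
Authors' signal value of each single-gene promoter peak in replicate 1 and in replicate 2, on log axes, for internal (red) and outermost (blue) starts. Drawn are the 629 peaks that each replicate had a region for. The pair at the top right is W06H8.6 and madf-10, and both classes cover the same range below them.

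No difference in strength between internal and outermost peaks was detected. The median pooled signal was 135 at internal starts (93.2 to 2450) and 133 at outermost starts (92.3 to 17149.7). In replicate 1 the medians were 42.3 at internal and 43.4 at outermost starts, and in replicate 2 they were 97.3 and 95.1 in that order of classes. The stronger 50% of the reproducible list held 46.7% of the internal peaks (36.9 to 56.7) and 47.0% of the outermost ones (42.6 to 51.3), with a log2 odds ratio of −0.02 (2-sided Fisher's exact test, adjusted p = 1 over 6 tests by Benjamini and Hochberg). Regions are not replicates, so these p-values describe the lists. The pooled signal also set which regions are in the reproducible list, so the replicates are not independent of it.

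All 633 peaks had a region in replicate 1 and 629 had one in replicate 2. The 4 without one were fbxa-83, ZK1290.14, rgs-1 and gfi-3, named after their values were seen. The peaks were selected for reproducibility, and the replicate lists hold 25924 and 30000 regions, background included. An overlap was thus favoured beforehand and is no independent support. The weakest region matched in replicate 1 had rank 22549 and a signal of 7.51, below the median of 10.8 in that list. Among as many of the strongest regions of each replicate alone (1869), 485 of the 633 (76.6%) were found in replicate 1 and 578 (91.3%) in replicate 2. The summits of the 2 replicates lay a median of 25 bp apart. The class was the same in both replicates and the pooled list for 99 of 105 internal and 513 of 528 outermost peaks. In each replicate's own list, 17.7% and 17.8% of the peaks under the same rule were internal (17.7 ± 0.0604%, SD, n = 2).

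Strong peaks were found at outermost starts more often than weak regions were. Weak regions, meaning the regions below the median signal of the pooled list that overlap no reproducible peak, served as background, and 3770 of them met the same promoter rule. The nearest start was internal for 16.6% of the peaks (105 of 633) and for 29.5% of the weak regions (1113 of 3770), a log2 odds ratio of −1.07 (Fisher's exact test, adjusted p = 5.09e-12). Of the window bases searched, 21.6% are nearest to an internal start. Peaks numbered 20.7 per Mb of internal window (16.9 to 25.1) and 28.7 per Mb of outermost window (26.3 to 31.3). Weak regions ran the other way, with 219.6 per Mb of internal and 144.5 per Mb of outermost window. The weak regions are themselves calls of the authors, not random positions.

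The share of internal starts changed in steps along the pooled ranking. It was 16.6% in the reproducible list, 21.5% from there to rank 5000, 24.6% to rank 10000, 28.7% to rank 20000 and 29.4% to rank 30000. The share of summits within 300 bp upstream of an outermost start was 50% in the reproducible list and 50.3% in the next bin, then 40.2%, 34.7% and 27.6%.

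**Figure D2:**
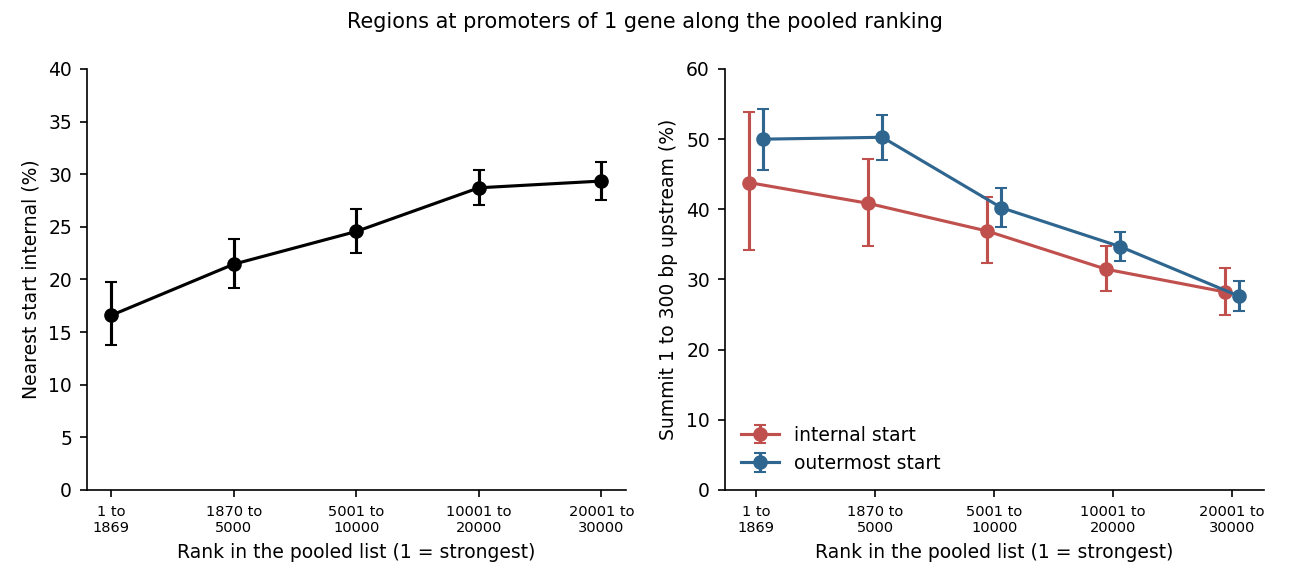
Regions at promoters of a single gene in 5 bins of the pooled ranking, with exact 95% intervals as bars. Left, the share whose nearest start is internal, from 16.6% in the reproducible list to 29.4% in the last bin. Right, the share with the summit 1 to 300 bp upstream of its start, for internal (red) and outermost (blue) starts, which ends at 28.2% and 27.6%.

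Peaks at outermost starts gathered between 300 and 101 bp upstream, a spacing that weak regions did not show. There were 66.7 peaks per Mb of window from 300 to 201 bp upstream and 70.4 per Mb from 200 to 101 bp, against 16.4 per Mb from 1000 to 751 bp. Directly upstream, from 100 bp to the start, there were 33.9 per Mb, and in the 200 bp downstream 9.65 per Mb (6.36 to 14.04). Weak regions had between 126 and 173 per Mb in each of these 7 bins. Summits within 300 bp upstream made up 50% of the outermost peaks (264 of 528), against 29.0% of the weak outermost regions (770 of 2657), with a log2 odds ratio of 1.29 (Fisher's exact test, adjusted p = 1.56e-19). Such bases made up 25.3% of the outermost windows. In the 2 replicates' own lists the share was 48.3 ± 0.907% (SD, n = 2).

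At internal starts the counts were small, and a test of the share within 300 bp upstream detected no difference from outermost starts. The 5 bins from 500 bp upstream down to the 200 bp downstream held 26.96, 37.4, 29.5, 33.2 and 9.31 peaks per Mb, with wide intervals, such as 20.9 to 61.7 for the second. From 200 to 101 bp upstream the interval was 15.7 to 50.4 at internal starts, below the 57.8 to 84.9 at outermost starts. In the other bins the intervals of the 2 classes overlapped. The difference in that single bin was noticed in the data and was not tested. The median distance was −243 bp for internal and −276.5 bp for outermost peaks, where negative is upstream. Their order turned round with a window of 1500 bp upstream (−365.5 bp internal, −316 bp outermost), with starts within 100 bp of the outermost one counted as outermost (−286.5 bp internal, −271 bp outermost) and with internal peaks counted outside the outermost window alone (−289 bp internal, −271 bp outermost). Summits within 300 bp upstream made up 43.8% of the internal peaks (46 of 105, 34.1 to 53.8) and 50% of the outermost ones (45.7 to 54.3), a log2 odds ratio of −0.36 (Fisher's exact test, adjusted p = 0.428). Upstream summits made up 87.6% of the internal and 94.9% of the outermost peaks, where the bases of the windows are 72.4% and 84.8% upstream.

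**Figure D3:**
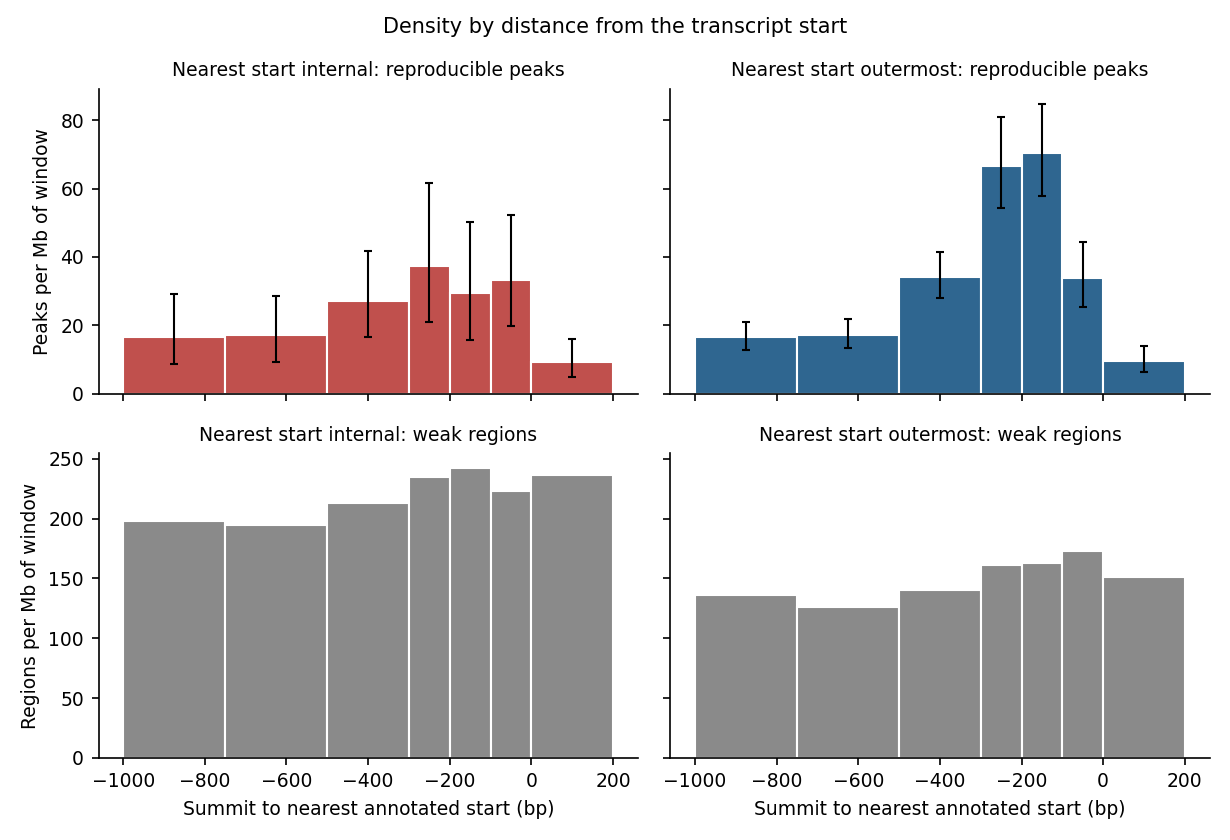
Peaks (top) and weak regions (bottom) per Mb of window by distance of the summit from the nearest annotated start, internal on the left and outermost on the right, where negative values are upstream. Black bars are exact 95% intervals. Outermost peaks reach 70.4 per Mb at 200 to 101 bp upstream, and weak outermost regions stay between 126 and 173 per Mb.

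The closest summits lay almost on the start. At internal starts these were prmt-5 (1 bp upstream, signal 135), hmg-1.2 (1 bp upstream, signal 163) and mmaa-1 (3 bp upstream, signal 93.7). Those starts lie only 15 bp (prmt-5), 3 bp (hmg-1.2) and 95 bp (mmaa-1) from the gene's outermost start, and the peaks also fall in the outermost window. The replicate 1 summit of hmg-1.2 was nearest to the outermost start. At outermost starts they were enee-1 (2 bp upstream, signal 105), F54D5.7 (2 bp upstream, signal 183) and scpl-3 (2 bp downstream, signal 112). The farthest were pqn-87 (953 bp), K11D2.4 (917 bp) and let-526 (899 bp) at internal starts, and T08G5.3 (996 bp), dhs-8 (995 bp) and acer-1 (992 bp) at outermost ones. Just outside the window were jun-1 at 1002 bp and cec-1 at 1003 bp upstream, and ZK112.4 and sms-3 at 206 bp downstream, where the farthest peak counted was that of pqn-59 at 178 bp. The weakest peak, at ech-1.2, had a signal of 92.2627, and the next region of the pooled list at a single-gene promoter, at nhr-105, had 92.2592.

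Peaks at promoters shared by genes are set beside these as a description of where their summits lie. Of the 633 single-gene peaks, 49.0% had the summit within 300 bp upstream of the nearest start, against 80.8% of the 297 peaks in the windows of 2 or more genes (240) that are left when 7 of the 304 near a tRNA gene are taken out, with a log2 odds ratio of −2.13 (Fisher's exact test, adjusted p = 2.37e-20). A shared promoter offers the nearest of at least 2 genes' starts, which by itself shortens the distance, so the test does not separate this from a difference in binding. Of the window bases, 27.3% of the internal and 25.3% of the outermost single-gene ones lie within 300 bp upstream of the nearest start, against 41.1% of the shared ones. The median signal was 133 for single-gene and 148 for shared promoters.

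Internal peaks lay inside their own genes by construction, and 84 of the 105 summits were in an intron, 18 in a non-coding part of an exon and 3 in a coding exon. Their starts lay a median of 3290 bp downstream of the gene's outermost start. Of the 528 outermost peaks, 418 had the summit between genes, 50 in a non-coding gene or pseudogene, 33 in another protein-coding gene and 27 in their own gene. The gene's nearest upstream neighbour was on the same strand for 46.7% of the internal peaks (36.9 to 56.7) and 63.3% of the outermost ones. Of the window bases, 57.1% of the internal and 65.5% of the outermost ones belong to genes with such a neighbour.

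Of the outermost peaks, 211 of 528 (39.96%) were at genes with several annotated starts, and 24.99% of the bases of outermost windows belong to such genes. Internal peaks need such a gene by definition. Within the 316 peaks at such genes, 33.2% were nearest to an internal start. Outermost peaks had similar medians whether or not the gene had other starts. The median signal was 133 at the 211 outermost peaks of genes with other starts and 134 at the 317 of genes with 1 start, and the median distances were −258 bp with other starts and −285 bp with 1 start.

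Most internal peaks stood where the outermost promoter of the same gene had a weaker region or none. Of the 105, 11 also fell in the outermost window. Of the other 94, the outermost window held no pooled region for 22, a weaker region for 64 and a stronger one for 8. The median signal was 137 at these internal peaks and 42.4 at the strongest region of those outermost windows that had one. The peaks were chosen for being in the reproducible list and their counterparts were not, so these values are a description with no test.

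In 14 genes both an internal and an outermost start had a peak of its own, and either could be the stronger. The internal peak was stronger at din-1 (1164 internal, 375 outermost), at T24B8.3 (2105 and 357 internal, 281 outermost) and at hif-1 (492 internal, 137 outermost). It was weaker at gsa-1 (337 internal, 2539 outermost), T02E1.2 (172 internal, 284 outermost) and lgg-2, an Atg8-like gene of autophagy (151 internal, 237 outermost). The other 8 genes were unc-108 (the Rab2 GTPase), ari-1.4, C34B4.2, lin-28 (the heterochronic RNA-binding protein), pcf-11 (transcript cleavage), ltah-1.2, nhr-49 (a nuclear receptor of fat metabolism) and hrg-1 (a haem transporter). All of their values lay between 92.9 and 165.

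T24B8.3 and tent-5 were the 2 genes with 3 peaks, and at each of them 2 summits shared a deposited region. At tent-5 all 3 were internal, with pooled signals of 493, 182 and 180. The third of these had 19.9 in replicate 1 and 111 in replicate 2. In all, 29 genes had 2 or more peaks, with 60 peaks between them. Of the whole set, 16 peaks had a deposited region with the same start and end as that of another one. Regions that overlap with a different end, as at lin-66 and H41C03.3, are not in that count. Both lin-66 peaks took their replicate 1 value (154) from the same region.

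The summits were richer in G and C than the bases beside them and than weak regions, values given with no test. Over the 101 bases centred on the summit, the median G+C content was 49.5% at internal and 49.0% at outermost peaks, against 36.6% and 34.7% in windows shifted by 300 bp to the left and right. At weak regions it was 35.6% both at the summit and beside it. Peaks at shared promoters were like the single-gene ones, with 49.5% at the summit and 35.6% beside it. Averaged over peaks in steps of 20 bp, the content reached 52.3% at internal and 51.4% at outermost summits. At 110 bp upstream of the summit it was 41.3% at internal and 36.4% at outermost peaks, and at 110 bp downstream 40.6% and 37.2%. At 250 bp downstream it was 41.4% and 35.5%, and at 450 bp downstream 34.5% and 37.9%. The content near internal summits was thus higher on both sides, but the width of the GC-rich stretch was not measured. That difference in content was noticed in the data and not tested.

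**Figure D4:**
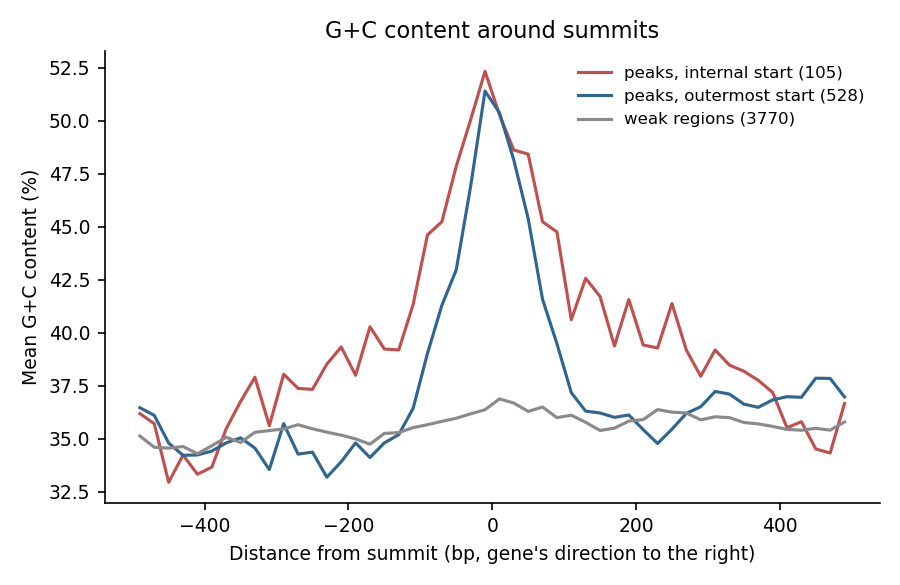
Mean G+C content in steps of 20 bp around summits, with the direction of the gene to the right, for peaks at internal (red) and outermost (blue) starts and for weak regions (grey). The peaks reach 52.3% and 51.4% at the summit, and weak regions stay near 36%.

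Some AT-rich motifs were under fewer summits than beside them, again with no test. TATAAA, the core of the TATA box, was within 50 bp of 3.16% of summits, against 12.6% of windows beside them and 14.3% of weak regions. A run of TTTTTT was at 17.9% of summits, 41.5% of windows beside them and 42.1% of weak regions. TTTCAG, the consensus of the worm 3′ splice site, was at 7.74% of summits, 20.6% of windows beside them and 18.9% of weak regions. It was at 6.67% of internal (7 of 105) and 7.95% of outermost peaks (42 of 528), a log2 odds ratio of −0.27 (Fisher's exact test, adjusted p = 1). With G+C content as different as given above, such counts move with base composition, and its part was not tested.

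The GA repeat was under more summits. GAGAGA, searched on both strands, was at 27.3% of summits (23.9 to 31.0), against 6.87% of windows beside them, 7.14% of weak regions and 6.49% of windows of the same length centred 250 bp upstream of all 19973 outermost starts. It was at 41.0% of internal summits (43 of 105, 31.5 to 51.0) and 24.6% of outermost ones (130 of 528, 21.003 to 28.5). The windows beside those summits had it at 7.14% for internal and 6.82% for outermost peaks. Peaks at shared promoters also held GAGAGA more often than these windows, at 17.5% of summits (13.4 to 22.3). In the replicates' own lists the shares were 36.7% and 35% at internal and 21.5% and 23.6% at outermost starts. This split by class was noticed in the data and was not tested.

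Of the 10 sequences of 6 bases with the largest excess over the windows beside the summits on 3 of the chromosomes, GAGAGA was one. The others were counted again on the remaining chromosomes II, IV and X, where GACGCA was at 17.0% of summits, 0.909% of windows beside them and 3.30% of weak regions. CGTCTC was at 20.6% of those summits, 3.33% of the windows beside them and 4.29% of weak regions. ACGCAG was at 17.0% of those summits and 1.67% of the windows beside them, CGCAGA at 16.1% and 1.97%, and AGACGC at 13.6% and 2.73%. AGAGAG was at 27.6% and 4.39%, AGAGAC at 18.8% and 4.39%, and CAGAGA at 15.2% and 5.00%. The smallest ratio there was that of AGAGAA, at 20.6% of summits, 13.0% of windows beside them and 9.95% of weak regions. Of the motifs set by name, CACGTG was at 4.74% of all summits, 1.501% of windows beside them and 1.91% of weak regions, and GCGCGC at 9.32%, 1.501% and 0.955%. As with the AT-rich motifs, such counts move with base composition. Its part was not tested for these motifs or for the run AGACGCAG.

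Several of these sequences overlap by 5 bases and chain into one run, and AGACGCAG was the most frequent part of 8 bases at the peaks. A choice by frequency at the same peaks favours a high share there. The same part was the most frequent on the 3 chromosomes used for the choice, and on II, IV and X it was at 32 of 330 summits (9.70%, 6.73 to 13.4), against 0.152% of windows beside them and 1.10% of weak regions. Over all chromosomes it was at 70 of 633 summits (11.1%, 8.72 to 13.8), against 0.553% of windows beside them, 1.22% of weak regions and 1.00% of all outermost promoters. It was at 13.3% of internal (7.49 to 21.4) and 10.6% of outermost summits (8.11 to 13.6), so the classes overlapped in their intervals. Peaks at shared promoters had it at 6.06% (3.63 to 9.41). Of its 128 occurrences within 150 bp of a summit, 44 were within 25 bp (34.4%), against 180 of the 873 of GAGAGA (20.6%). The median signal was 142 for peaks with the run and 133 for those without. For GAGAGA it was 133.5 with the motif and 133.4 without. Both this run and GAGAGA were at 33 peaks, and neither was at 423. A match of letters is a description and does not show which protein was bound.

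Single-gene promoter peaks were spread over the gene groups unevenly. Of all 19985 protein-coding genes, 3.01% had such a peak, and the groups are read against that share without a test. The groups were chosen with earlier results of these data known, which can favour groups that hold a strong peak. Genes were grouped by name, so a group can take in a gene of another function. The vacuolar proton pump had 4 of 20 genes (20%, 5.73 to 43.7), with vha-13 at 822, vha-12 at 185, vha-15 at 114 and vha-9 at 112 in pooled signal. The respiratory chain and ATP synthase had 9 of 50 (18.0%, 8.58 to 31.4), led by cox-5A (463) and cox-5B (338), both subunits of cytochrome c oxidase, then nduf-9 (155) and sdha-1 (148).

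Cytosolic ribosomal proteins had 13 of 81 genes (16.0%, 8.83 to 25.9), led by rpl-3, rpl-35, rps-24 (294) and rpl-41.2 (238). At peaks of shared promoters there were 33 ribosomal genes. All 13 genes had their peak at an outermost start, with a median distance of −296 bp. Of all single-gene peaks, 83.4% lay at such a start. Several annotated starts, which an internal peak requires, are present in 17 of the 81 genes. Mitochondrial ribosomal proteins had 5 of 70 (7.14%, 2.36 to 15.9), among them mrpl-23 (250). Translation factors had 4 of 41 (9.76%, 2.72 to 23.1), with eif-3.C (256) and eif-3.B (194) ahead of eef-1A.2 (166) and eif-2Bgamma (126). Both of these intervals hold the share of all genes.

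The ubiquitin system had 10 of 74 genes (13.5%, 6.68 to 23.5), led by eel-1 (396), a HECT ubiquitin ligase, ubc-9 (314), the SUMO-conjugating enzyme, wwp-1 (306) and usp-4 (218). Vesicle traffic had 14 of 143 (9.79%, 5.46 to 15.9), led by vps-60, epn-1, vps-4 (404), the ATPase that takes ESCRT-III apart, and vps-25 (192), whose peak was internal. Chaperones had 4 of 68 (5.88%, 1.63 to 14.4, an interval that holds the share of all genes), namely hsp-3 (343) and hsp-1 (293) of the Hsp70 family and the DnaJ-type dnj-9 (176) and dnj-20 (103). The proteasome had 2 of 33 (0.743 to 20.2%), pas-5 (102) and rpn-11 (93.1).

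Chromatin regulators had 14 of 123 genes (11.4%), all at outermost starts, where 83.4% of all single-gene peaks lay. Several annotated starts are present in 48 of the 123. The group was led by cbp-1 (389), the p300-type acetyltransferase, swsn-7 (282), a SWI/SNF subunit, the bromodomain gene bet-2 (244) and lin-9 (242) of the DRM complex. The spliceosome had 4 of 52 (7.69%, 2.14 to 18.5), with mog-4 (341), rsp-6 (258), snr-4 (147) and snrp-3 (126). RNA polymerase II with its general factors had 3 of 66 (4.55%, 0.947 to 12.7), with cdk-7 (190), taf-12 (152) and mdt-22 (114.7). P granule and germline regulators, as grouped by name, had 2 of 40 (0.611 to 16.9%), puf-9 (366) and cgh-1 (231). Kinesins had 2 of 20 (1.23 to 31.7%), klp-13 and klp-11 (222). The intervals of the spliceosome, RNA polymerase II, P granule and kinesin groups all hold the share of all genes.

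In G protein and cAMP signalling most of the genes with a peak had one at an internal start, a count given without a test. Of all 602 genes with a peak, 99 (16.4%) had one at an internal start. Several annotated starts, which an internal peak requires, are present in 32 of the 60 genes of the group and in 26.3% of all protein-coding genes. The group had 7 of 60 genes (11.7%), of which 5 had a peak at an internal start and 3 at an outermost one. After gsa-1, the strongest was kin-1 (181), the catalytic subunit of protein kinase A, at a start 26243 bp downstream of the outermost one. Then came crh-2 (154), a CREB-like factor, and gpb-1 (149), the G protein beta subunit.

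Other groups were at or below the share of all genes. Nuclear hormone receptors had 8 of 274 (2.92%), led by nhr-48 (181), nhr-135 (155), nhr-35 (142) and nhr-1 (127). Homeobox and bHLH factors had 2 of 111, hlh-11 (435) and hlh-30 (130). Muscle structure, a group formed by gene name and not by tissue, had 1 of 46, act-5 (110). Chemoreceptors had 4 of 1364 (0.293%, 0.0800 to 0.749), with srbc-82, srh-2 (201), sre-23 (190) and srv-1 (110). Collagens and other cuticle genes had 0 of 204, with an upper bound of 1.79% by the exact interval.

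**Figure D5:**
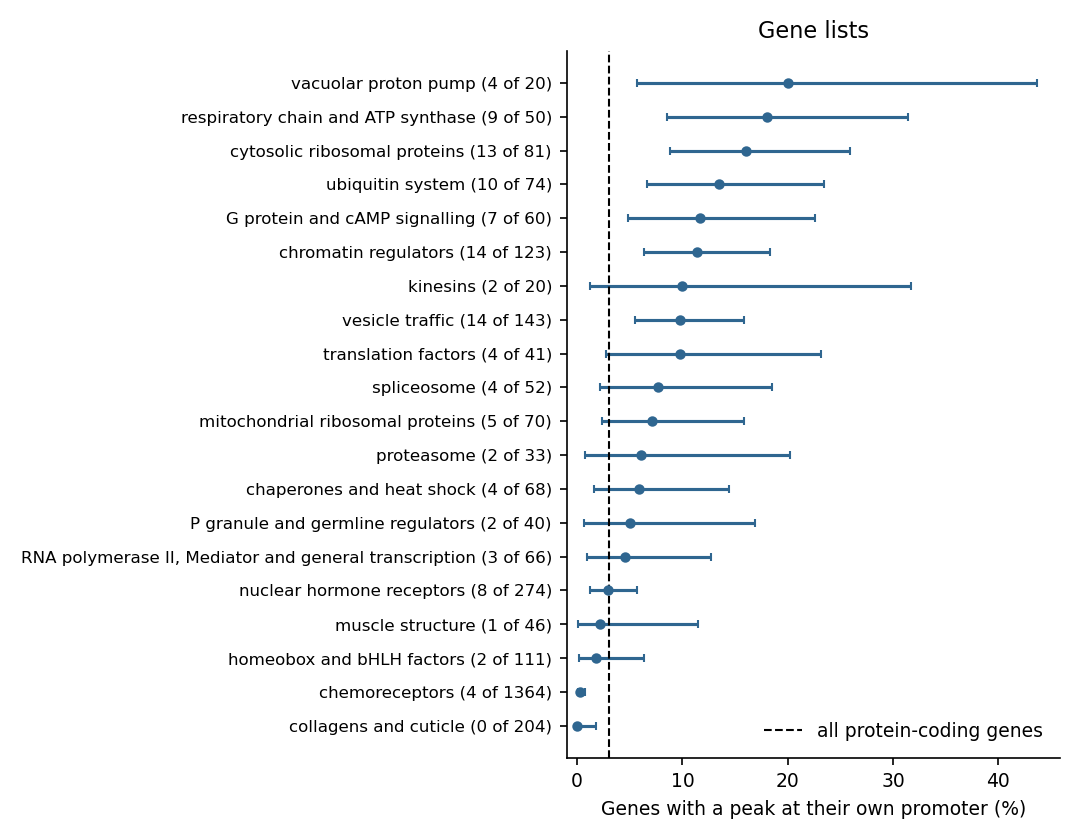
Share of the genes of each group with a reproducible peak at a promoter of their own, with exact 95% intervals, and the share of all protein-coding genes (3.01%) as a dashed line. The numbers in brackets are genes with a peak of all genes in the group. The vacuolar proton pump is highest at 20%, and collagens are at 0. The groups were chosen with earlier results of these data known.

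By chromosome, genes with a peak made up from 1.94% of the genes on V to 4.17% of those on X. The share of internal starts was lowest on X, at 11.8% of 119 peaks, and highest on IV, at 21.6% of 97.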

How the data were processed

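Chromatin immunoprecipitation of MADF-10 was sequenced in 2 biological replicates, per the labels. The deposited lists give peaks and background regions per replicate, for pooled alignments and, as the reproducible list, after an irreproducible discovery rate threshold, per the deposited readme files. Their signal column holds a signal value that the authors gave each region. The sources used here do not give the aligner, peak caller, threshold or depth. The reproducible list is the 1869 strongest regions of the pooled list, which has 30000 (replicate 1 has 25924, replicate 2 has 30000).

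Summits were set against Ensembl release 115 (WBcel235) with Python 3.11.15, numpy 2.4.6, pandas 2.3.3 and scipy 1.17.1. The class came from the nearest start of the gene. The assignment was checked with invented summits placed at known distances from annotated starts. Replicate values come from the region nearest to the summit, or from the 1869 strongest regions of that replicate. A motif counted at most 1 time in the 50 bp left and right of a summit, either strand. Shares were compared by 2-sided Fisher's exact tests, adjusted over 6, at 0.05. Intervals are exact binomial or Poisson 95% intervals. The text names madf-10, the 15 strongest peaks per class, the nearest and farthest 3, genes with 3 peaks, the edges, and up to 4 per gene group. Members and lists were chosen with earlier results of these data known. Windows, the tRNA distance, the list, the classes and the background were varied. The lists for build ce10 were not used here.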

Additional observations from a re-analysis of the deposited data

How the results depend on the processing

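The 3 differences that passed the test kept direction and threshold under all settings run, though the last is in part fixed by how shared promoters are defined. Their log2 odds ratios ran from −1.43 to −0.78 (internal share against weak regions), from 0.81 to 1.52 (outermost summits within 300 bp upstream) and from −2.31 to −1.56 (against shared promoters). Of 126 values recomputed, 91 stayed close, 30 moved and 5 turned round, and the cause was not tested.

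The stronger 50% of the list held 297 of the peaks, with 16.5% internal, 95.3% upstream and medians of −261 bp (internal) and −291.5 bp (outermost). A window of 500 bp upstream and 100 bp downstream gave 14.3% internal and medians of −196.5 and −212 bp. A window of 1500 bp upstream gave 18.4% internal, 94.9% upstream and medians of −365.5 and −316 bp. Without the tRNA rule, 17.0% were internal, with medians of −270 and −285.5 bp. Counting starts within 100 bp of the outermost as outermost gave 15.2% and medians of −286.5 and −271 bp. Calling a peak internal only outside the outermost window gave 14.8% and medians of −289 and −271 bp. Genes with several starts, a setting chosen after seeing the data, gave 33.2%.

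From 1 replicate alone, 17.7% to 17.8% were internal and 90.6% to 91.9% upstream. The medians lay from −207 to −230 bp (internal) and from −270.5 to −274 bp (outermost), and the log2 signal difference from −0.10 to 0.0014. By Fisher's exact test, the TTTCAG comparison turned to 0.44 (adjusted p = 0.468) in the narrow and 0.036 (adjusted p = 1) in the wide window. The share in the stronger 50% turned, by the same exact test, to 0.036 (adjusted p = 1) in the stronger list, 0.068 (adjusted p = 0.912) with merged starts and 0.14 (adjusted p = 0.737) with the stricter class. Neither passed a threshold anywhere.

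Leaving out the peaks at W06H8.6 and madf-10 and those within 10 kb of the 3 strongest regions, chosen after seeing the data, left 628 peaks. No paired analysis was possible because the design has 1 group. Depth is unknown, so weak signal cannot be told from too few reads, and 2 replicates give the SD little precision.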
